A study of Mus musculus with 2 samples.

Results

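Open chromatin was described here at 34 genes that encode the machinery of regulated exocytosis and the calcium channels that trigger it, in the mouse adrenal gland. The genes were named by symbol, 34 of the 21755 protein-coding genes on the autosomes and the X chromosome in GENCODE M21, and all 34 were found in that annotation. They comprise SNARE proteins (Snap25, Snap23, Stx1a, Vamp2), calcium sensors and related proteins (Syt1, Syt4, Syt7, Syt11, Doc2b, Rph3a), complexins (Cplx1, Cplx2), priming and tethering factors (Unc13a, Cadps, Cadps2, Rims1, Rims2, Rab3a, Rab3c, Sytl4), vesicle proteins (Syp, Sv2a, Sv2b, Sv2c, Syn1, Syn2), chaperones and disassembly factors (Dnajc5, Nsf, Napa, Napb) and pore-forming calcium channel subunits (Cacna1a, Cacna1b, Cacna1c, Cacna1d). The samples were 2 biological replicates of 1 group. They were adrenal gland tissue of female mice at 10 days of age, with 3 females named for each sample. The strain was B6CASTF1/J, the first-generation cross of C57BL/6J and CAST/EiJ. DNase-seq, in which the cuts of DNase I mark accessible DNA, gave for each replicate a list of peaks, a list of footprints (short stretches inside open chromatin that the enzyme cut less often) and a list of false discovery rates (FDR). With 1 group there was no contrast between conditions, so the values below are levels in each replicate, set beside those of all protein-coding genes, and no test was made.

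Chromaffin cells of the adrenal medulla store catecholamines in dense-core granules and release them when calcium enters through voltage-gated channels. A granule is tethered and primed at the plasma membrane, its SNARE protein zips together with SNARE proteins of the plasma membrane, a synaptotagmin senses calcium and triggers fusion, and an ATPase then takes the SNARE bundle apart for reuse. Neurons use the same proteins to release transmitter, and many of these genes are known targets of REST, a zinc-finger repressor that holds neuronal genes down in other cell types.

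A shared peak was a region where peaks of both replicates overlapped by at least 1 bp. There were 48299 such peaks, drawn from 98813 peaks in replicate 1 and 55135 in replicate 2, and 21677 of them were promoter peaks, within 1 kb of an annotated start of any gene. Peak height is the authors' normalised signal, and shared peaks were 1.66-fold higher in replicate 1 at the median (0.73 on the log2 scale). Heights came in steps of 0.00668 in replicate 1 and 0.00620 in replicate 2. If 1 step were 1 sequenced tag, which is inferred from the values alone, the highest promoter peaks of the 34 genes would hold 72 to 1753 tags in replicate 1 and 76 to 906 in replicate 2, with a counting error of 11.8% and 11.5% at the lowest. Shared promoter peaks were found for 5 of 8 chromaffin markers (Slc18a1 at 13.7 and 6.85 in replicates 1 and 2, Chgb at 8.31 and 4.17, Gata3 at 7.08 and 3.18, Chga at 2.20 and 1.83, Dbh at 1.12 and 0.570, none at Th), 5 of 6 cortex markers (Scarb1 at 8.16 and 4.91, Cyp11a1 at 3.74 and 1.87, Star at 3.58 and 1.25, Nr5a1 at 3.24 and 2.09, Cyp11b1 at 1.51 and 0.812, none at Mc2r), 3 of 5 Schwann and sustentacular markers (none at Sox10), 3 of 5 neuron markers, 1 of 4 endothelial markers, 2 of 3 capsule and fibroblast markers and 2 of 3 adipocyte markers. The labels name adrenal gland tissue and no cell type, so fewer cells of a type and less signal per cell cannot be told apart. The part of each cell type in the peaks below was not tested.

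All 34 genes had a shared promoter peak within 1 kb of an annotated start, against 64.1% of protein-coding genes. Openness followed CpG content, measured as the observed over the expected number of CpG in the 500 bp on each side of the 5'-most start. In its 5 upper deciles 95% of protein-coding genes had such a peak, and 23 of the 34 genes lay there. Protein-coding genes of the same deciles as the 34, decile by decile, had one in 82.3% on average. The peaks were low. Over the 34 genes the median height of the highest promoter peak was 2.34 in replicate 1 and 1.71 in replicate 2, against 5.94 and 3.10 over all 13948 protein-coding genes with such a peak. Below those medians lay 26 of the 34 in replicate 1 and 25 in replicate 2, against 49.9% of genes by construction in each. In both replicates 23 of the 34 lay below the median of their own CpG decile, against 43.8% of genes. Widths were close to those of other genes, with a median of 360 bp against 339 bp, and 13 of the 34 highest peaks were over 400 bp wide, against 33.2% of all.

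**Figure D1:**
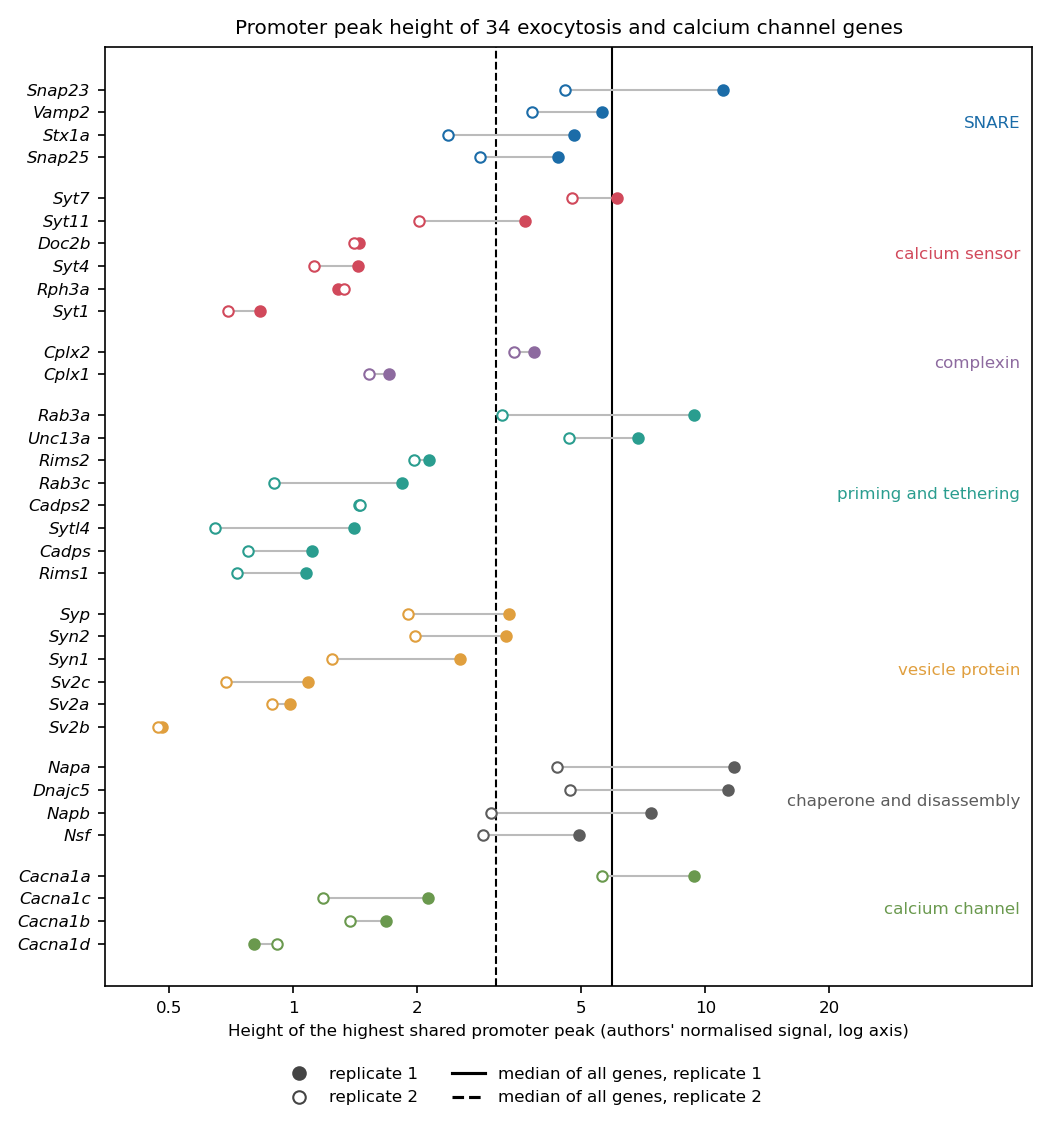
Height of the highest shared promoter peak of each of the 34 genes (authors' normalised signal, log axis), with replicate 1 as filled and replicate 2 as open circles, grouped by role. The vertical lines are the medians over all protein-coding genes with a promoter peak, 5.94 in replicate 1 (solid) and 3.10 in replicate 2 (dashed), and Snap23, Syt7, Unc13a, Rab3a, Napa, Dnajc5 and Cacna1a lie beyond the line of their own replicate in both. The Cacna1a peak lies 251050 bp downstream of the 5'-most start, near the start of a processed transcript.

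Height differed between roles, which were not matched by CpG content. Over all genes with a promoter peak, the median height rose from 2.52 in CpG decile 4 to 8.32 in decile 10 in replicate 1. In replicate 2 it rose from 1.48 to 4.07. The part of CpG content in the differences between roles was not tested. In replicate 1 the 3 highest were Napa, Dnajc5 and Snap23, whose products act in many cell types. Napa, which encodes alpha-SNAP, the adaptor that brings the ATPase to the SNARE bundle, had 11.7 in replicate 1 and 4.36 in replicate 2. Dnajc5, the cysteine string protein that chaperones SNAREs on vesicles, had 11.4 and 4.69. Snap23, the broadly used relative of Snap25, had 11.04 and 4.56. In replicate 2 the 3 highest were Cacna1a (5.62), Syt7 (4.74) and Dnajc5. The Cacna1a value is that of a peak in a coding exon 251050 bp downstream of its 5'-most start, near the start of a processed transcript. The Cacna1a peaks near protein-coding starts had at most 1.05 in replicate 1 and 0.985 in replicate 2. The medians of the channels below use the downstream peak. At the other end, Sv2b, a vesicle membrane glycoprotein gene, had 0.481 and 0.471. Medians over the role groups ran from 9.38 and 3.69 (4 chaperone and disassembly genes) and 5.20 and 3.32 (4 SNARE genes) through 2.77 and 2.48 (2 complexins), 1.90 and 1.28 (4 calcium channels) and 1.81 and 1.06 (6 vesicle proteins) to 1.64 and 1.17 (8 priming and tethering genes) and 1.44 and 1.36 (6 calcium sensors). That order is the one of replicate 1, and in replicate 2 the sensors stood above the channels and the vesicle proteins came last. Within groups the genes spread widely, from 1.08 to 9.39 for priming and tethering and from 0.802 to 9.37 for the channels in replicate 1. The upper end for the channels is the downstream Cacna1a peak. When only the 50% highest peaks of each replicate were kept, 25 of the 34 retained a shared promoter peak. This compares with 56.4% of all genes and 73.0% over the same CpG deciles, so the count was close to the CpG-matched share. The 9 without a shared promoter peak in this setting were Syt1, Cadps, Rims1, Rab3c, Sytl4, Sv2a, Sv2b, Sv2c and Cacna1d.

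The motif of REST, known as RE1, recurred in their peaks. A match was defined as at most 3 mismatches over the 19 fixed bases of its 21-base consensus, on either strand, and was found in the shared promoter peaks of 8 of the 34 genes (Snap25, Syt4, Syt7, Rph3a, Cadps, Syp, Syn1 and Cacna1b), against 0.542% of protein-coding genes. With distal peaks within 50 kb included, Napa made 9 of 34, against 2.09%. By peaks, 8 of the 56 shared promoter peaks of the 34 genes held a match, against 0.595% of all shared promoter peaks, and 1 of their 76 distal peaks, against 1.15% of all distal peaks. Over the gene bodies and 50 kb on either side, 15 matches were found in the sequence, and 12 of them (80%) lay inside a shared peak, against 464 of 1296 matches over the genome (35.8%). The matches over the genome were not limited to windows around genes. Their share inside a shared peak ran from 24.4% at 3 mismatches to 91.7% at 0. A match is a description of the sequence and does not show that the factor was bound. The matches outside Syt4 are printed so that their shared bases can be seen, from the mm10 reference sequence, 5′ to 3′ on the strand of the match, with the 21 bases of the match in capitals and 4 flanking bases in lower case. The Napa match had 0 mismatches and therefore spells the consensus, in which the 2 bases after the first 9 were free.
Napa, chr7:16147821-16147849, + strand, 0 mismatches: gtctTTCAGCACCGCGGACAGCGCCcgcc
Snap25, chr2:136714334-136714362, + strand, 2 mismatches: acctTTCAGCACCGCGGACAGCGATccgg
Cacna1a second match, chr8:84471456-84471484, + strand, 2 mismatches: ccgtTTCAGCACGCTGGACAGCACCatgg
Syp, chrX:7638733-7638761, + strand, 2 mismatches: gcgcTCCAGCACCGTGGACAGAGCCcggc
Syn1, chrX:20921126-20921154, - strand, 2 mismatches: cggaTTCAGCACCGCGGTCAGAGCCttcg
Cacna1b, chr2:24762079-24762107, + strand, 3 mismatches: cgccGTCAGCACCACGGACAGCTGCctgg
Rph3a, chr5:121009610-121009638, + strand, 3 mismatches: ggcaGTCAGTACCACGGACAGCACCagga
Syt7 first match, chr19:10403277-10403305, + strand, 3 mismatches: agtgTTCAGCACCAAGGACAGGGATatcc
Syt7 second match, chr19:10403315-10403343, + strand, 3 mismatches: ctgtTTCAGTACCAAGGGCAGCACCaaag
Cadps, chr14:12823982-12824010, - strand, 3 mismatches: taggTTCAGCACGCTGGCCAGCTCCcccg
Cacna1a first match, chr8:84454739-84454767, - strand, 3 mismatches: gacaTTCAGCACCATGGCCAGCAGCcaac

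Footprints lay over most of these matches. Of the 12 matches in shared peaks of the 34 genes, 8 had their centre inside a footprint of both replicates and 10 inside a footprint of at least 1, where 81.5% of all 464 matches in shared peaks had one of both. In promoter peaks alone it was 5 of 9 in both, against 74.3% of 140 matches. The footprint spanned all 21 bases in both replicates at Snap25, Cacna1b, the first Syt7 match, Napa and both Cacna1a matches. At Rph3a it covered 20 bases in replicate 1 and 21 in replicate 2, and at Syt4 21 and 19. The exceptions were Cadps (17 bases in each replicate, with the centre covered in replicate 1 only), the second Syt7 match (7 and 5 bases), Syp (9 and 10 bases, the centre in neither) and Syn1, whose match overlapped no footprint in either replicate although its peak held 7 and 6 footprints. The peaks themselves were modest, from 0.755 to 4.39 in replicate 1 and from 0.620 to 2.84 in replicate 2. Over all 464 matches the median peak height was 1.39 and 1.02.

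**Figure D2:**
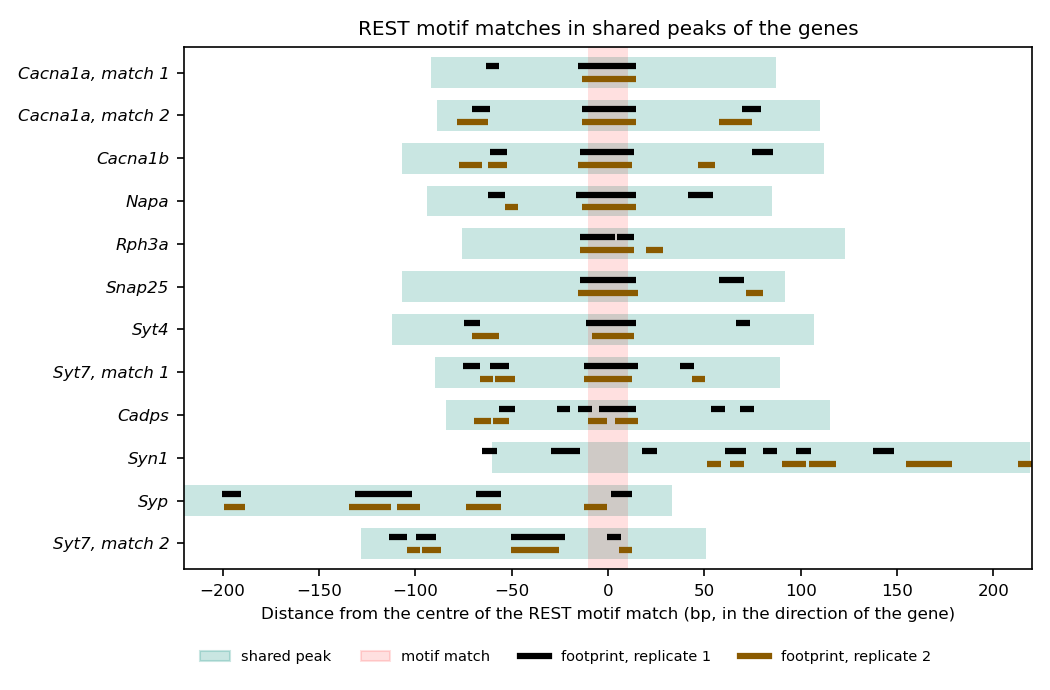
Shared peaks of the 34 genes that hold a REST motif match, aligned at the centre of the match (x axis, bp), with footprints of replicate 1 in black and of replicate 2 in brown. In the upper 8 rows a footprint of each replicate lies over the match, and in the lower 4 rows (Cadps, Syn1, Syp and the second Syt7 match) at least 1 replicate lacks a footprint over its centre.

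Most matches lay inside the genes. An intron held 7 of the 12, a coding exon the match of Syp, and a UTR exon that of Syt4, while those of Cadps, Syn1 and Napa lay outside the gene. Relative to the 5'-most start, the matches stood at +895 bp in Snap25, +468 bp in Rph3a, +1059 bp in Cacna1b, +14201 bp in Syt7, +276 bp in Syp, +218 bp in Syt4, -136 bp in Syn1 and -917 bp in Cadps. The whole intronic peaks of Snap25 and Cacna1b are printed because the protected bases stand out in them. They are given from mm10 on the strand of the gene, with bases inside footprints of both replicates in capitals (29 of 200 bases in Snap25, + strand, and 36 of 220 in Cacna1b, - strand).
Snap25, chr2:136714241-136714440: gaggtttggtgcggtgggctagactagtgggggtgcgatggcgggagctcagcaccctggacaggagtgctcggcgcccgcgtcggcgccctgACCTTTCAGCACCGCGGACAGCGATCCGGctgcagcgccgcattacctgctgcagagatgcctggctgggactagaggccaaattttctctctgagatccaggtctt
Cacna1b, chr2:24761981-24762200: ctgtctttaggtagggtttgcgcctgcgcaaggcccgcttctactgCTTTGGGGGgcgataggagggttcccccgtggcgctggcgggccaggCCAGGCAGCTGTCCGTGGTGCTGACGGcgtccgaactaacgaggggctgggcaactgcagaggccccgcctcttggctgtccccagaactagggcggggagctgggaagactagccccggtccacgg

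Each of the 4 SNARE genes had a shared peak at its 5'-most start. Snap25 encodes the plasma membrane SNARE that gives a pair of helices to the bundle. Its highest promoter peak was the intronic one with the REST match, 763 bp from the nearest start, at 4.39 in replicate 1 and 2.84 in replicate 2. The peak over the Snap25 start itself (chr2:136713301-136713700) was lower, at 1.52 and 0.917, and 400 bp wide. Stx1a, the syntaxin of the plasma membrane, had 4.79 and 2.38 at its start (chr5:135023361-135023620), and Vamp2, the SNARE of the vesicle, 5.62 and 3.79 (chr11:69088381-69088780). Snap23 (chr2:120567541-120567840) had 11.04 and 4.56, so that it stood above the other 3 in both replicates. The order of the other 3 differed, since Stx1a exceeded Snap25 in replicate 1 and fell below it in replicate 2.

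Syt7, a sensor with high affinity for calcium, had the highest peak of the calcium sensor group. It lay just upstream of the 5'-most start (chr19:10388641-10389100) at 6.12 in replicate 1 and 4.74 in replicate 2, with 6 footprints found in both replicates, that is, overlapping between them. A second Syt7 promoter peak, centred 14200 bp downstream near an internal start, held both REST matches and had 2.25 and 1.41. Syt1, the fast sensor of synchronous release, had 0.829 and 0.694 in a 520 bp wide peak over its start, the lowest of the group. Syt4 and Syt11 belong to the synaptotagmins that bind little calcium. Syt4 had 1.44 and 1.12, and Syt11 had 3.64 and 2.01 at an internal start 2565 bp inside the gene (chr3:88772461-88772740), whereas the peak near its 5'-most start was 59 bp wide at 0.729 and 0.824. That small peak lay within 1 kb of a start of 5830417I10Rik as well. Doc2b, a calcium-binding protein that acts on slow release, had 1.44 and 1.40, and Gm12339 starts within 1 kb of that peak too. Rph3a, the rabphilin that binds Rab3, had 1.28 and 1.33 in the single peak over its REST match.

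The complexins bind the SNARE bundle and hold it ready for calcium. Cplx2 had 3.84 in replicate 1 and 3.43 in replicate 2, in a peak 292 bp inside the gene, and Cplx1 had 1.71 and 1.52 in a 480 bp wide peak over its start. Cplx2 stood above Cplx1 in both replicates. Each was 1.12-fold higher in replicate 1, less than the median of 1.66-fold over all shared peaks. The Cplx2 peak held no REST match at up to 3 mismatches, although 2 of its footprints were found in both replicates. The search took the consensus whole and did not look for its parts in another order, strand or spacing. The Cplx2 peak is printed to show the longer of these footprints. This footprint holds GGTGCTGAA, which is TTCAGCACC on the other strand, and then GGACAGCTCC. The sequence is from mm10 on the + strand of the gene, with the 37 of 200 bases inside footprints of both replicates in capitals.
Cplx2, chr13:54371641-54371840: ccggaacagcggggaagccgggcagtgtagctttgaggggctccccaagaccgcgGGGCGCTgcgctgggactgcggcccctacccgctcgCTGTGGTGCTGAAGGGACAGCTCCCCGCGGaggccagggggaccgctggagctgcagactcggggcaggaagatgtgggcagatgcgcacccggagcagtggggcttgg

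Among the priming and tethering genes a pair stood above the rest. Rab3a, the small GTPase of secretory vesicles, had 9.39 in replicate 1 and 3.21 in replicate 2 at its start (chr8:70754421-70754800), and Unc13a, which opens syntaxin for assembly, had 6.85 and 4.65 (chr8:71671661-71671860). The 6 other genes of the group were at or below 2.14 in replicate 1 and 1.96 in replicate 2. Rims2, a scaffold between vesicles and channels, led these with 2.14 and 1.96 and had 4 shared promoter peaks, 1 of them centred at an internal start 461339 bp downstream (1.58 and 0.967). Rims1, its relative, had a single 700 bp wide peak at 1.08 and 0.731. Cadps and Cadps2 encode the CAPS proteins that prime dense-core granules: Cadps had 1.11 and 0.775 in its highest of 3 low peaks, and Cadps2 had 1.44 and 1.45 in a 760 bp wide one. Rab3c had 1.83 and 0.899, and Sytl4, the granuphilin that docks granules, 1.40 and 0.645.

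Vesicle protein genes were all below the medians of all genes in both replicates. Syp, the synaptophysin gene, had 3.34 in replicate 1 and 1.90 in replicate 2, and the synapsin genes, whose products tie vesicles to the cytoskeleton, 3.28 and 1.97 (Syn2) and 2.54 and 1.24 (Syn1). Gm17733 starts within 1 kb of the Syn2 peak as well. The 3 genes of the SV2 glycoproteins were lower still. Sv2c had 1.08 and 0.688, Sv2a 0.983 and 0.886, and Sv2b 0.481 and 0.471. Their values did not overlap those of Syp, Syn1 and Syn2 within either replicate. Among all genes with a promoter peak, the highest SV2 gene exceeded 6.90% in replicate 1 (Sv2c) and 8.67% in replicate 2 (Sv2a). Syn1, the lowest of Syp, Syn1 and Syn2, exceeded 21.5% and 15.3%. The Sv2b peak lay within 1 kb of a start of 1500012K07Rik and the Sv2c peak of Gm29543. The highest vesicle protein gene exceeded 28.2% of all genes with a promoter peak in replicate 1 (Syp) and 28.4% in replicate 2 (Syn2). Most genes with a promoter peak therefore stood above every vesicle protein gene. All 4 chaperone and disassembly genes did so too, in both replicates. Besides Napa and Dnajc5 these were Napb, which encodes beta-SNAP, the relative of alpha-SNAP best known from brain, with 7.38 and 3.02, and Nsf, the ATPase that unwinds SNARE bundles, with 4.93 and 2.89.

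The calcium channel genes differed in where they were open. Cacna1b, the pore of N-type channels, had a peak over its 5'-most start at 1.75 in replicate 1 and 1.12 in replicate 2 besides the intronic peak at 1.68 and 1.38. The other 3 had no shared peak within 1 kb of the 5'-most start, and they were the only ones of the 34. At the 5'-most starts 31 of the 34 were open, against 59.6% of genes and 79.6% over the same CpG deciles, and of all genes with a shared promoter peak 7% lacked one at the 5'-most start. Around the 5'-most start of Cacna1c and Cacna1d no base was listed in the FDR file of either replicate, and at Cacna1a replicate 1 alone had a peak, at 0.254 with a lowest FDR of 0.00036. These 3 starts also had low CpG content, in deciles 4, 4 and 2.

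Cacna1c, the pore of the L-type channel of heart and smooth muscle, had 2.13 and 1.18 in the widest promoter peak of the set, 1080 bp (chr6:119108321-119109400), at a group of protein-coding starts up to 88443 bp inside the gene. A second peak next to it had 1.56 and 1.44. Cacna1d, the other L-type channel of chromaffin cells, had 0.802 and 0.911 (chr14:30353423-30353950) at starts up to 138464 bp inside the gene, 1 of 3 low peaks there. In Cacna1a, the pore of P/Q-type channels, peaks of 1.05 and 0.985 and of 0.709 and 0.750 stood within 1 kb of protein-coding starts 26924 bp inside the gene. Its highest peak, at 9.37 and 5.62, lay 251050 bp downstream in a coding exon (chr8:84639281-84639700), 290 bp from the start of a processed transcript of Cacna1a. This peak held 9 footprints found in both replicates, and in them 2 matches of the CTCF motif and 1 of the NRF1 motif, each covered at its centre in both replicates. It counts as a promoter peak through the processed transcript alone.

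**Figure D3:**
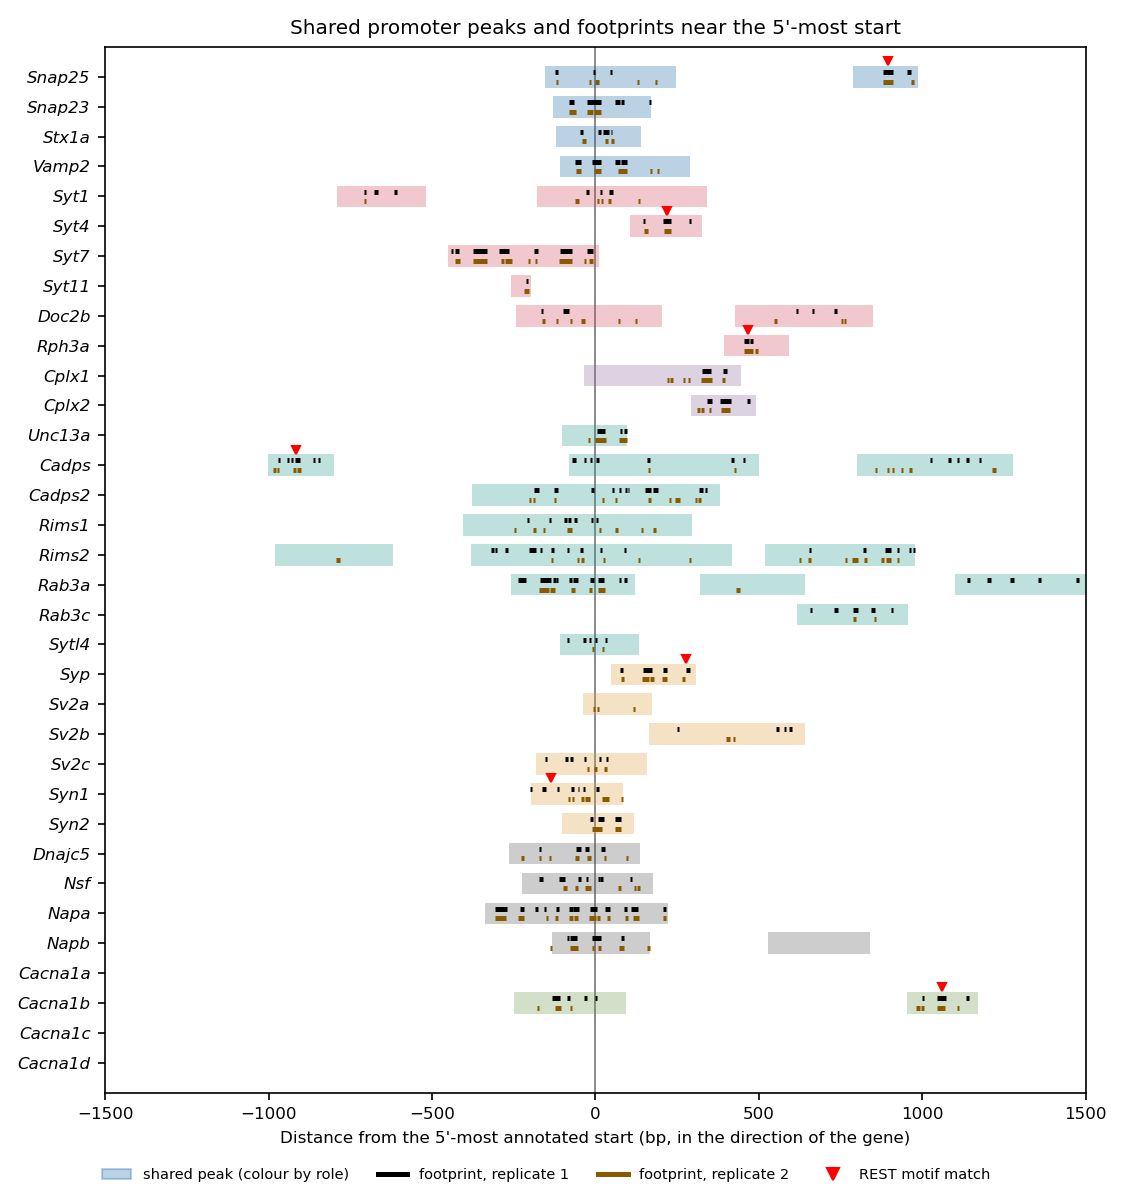
Shared promoter peaks (shaded, coloured by role) around the 5'-most annotated start (x axis, bp in the direction of the gene), with footprints of replicate 1 in black and of replicate 2 in brown and REST matches as red triangles. Rows without shading are Cacna1a, Cacna1c and Cacna1d, and in Snap25, Rph3a, Cplx2, Cadps, Rab3c and Cacna1b, among others, the highest peak stands downstream of the start.

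Of their 202 annotated starts 118 lay within 1 kb of a shared peak (58.4%), against 52.3% of the starts of protein-coding genes. More than 1 shared promoter peak was found for 14 of the 34, against 24.7% of genes, but the 34 also had more annotated starts, with a median of 6 against 3 per gene. Of the 56 promoter peaks 33 covered a start of the gene and 23 were centred in an intron. At the 1 kb limit, the Syn2 peak at 995 bp (0.882 and 0.614), the Cacna1b intronic peak at 847 bp and the Cadps peak with the REST match at 802 bp (0.755 and 0.620) fell just inside. A Snap25 peak at 1055 bp (0.575 and 0.527), a Syt11 peak at 1200 bp (0.822 and 0.762) and a Rims2 peak at 1201 bp (0.722 and 0.539) fell just outside and were counted as distal.

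The highest promoter peaks of the 34 genes held a median of 4 footprints in replicate 1 and 5 in replicate 2, against 6 and 5 over all genes. A median of 2 were found in both, against 3. A footprint of both replicates was present in 30 of the 34, against 95.5% of genes, and the 4 without were Cadps, Sytl4, Sv2a and Sv2b, all with low peaks. Napa led with 10 footprints found in both replicates, followed by Cacna1a with 9.

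Of the 14 other motifs searched, those of CRE, NRF1, SP and KLF, E-box and CTCF had promoter matches with the centre in a footprint of both replicates. Such cover was found for 2 of 3 CRE, 2 of 3 NRF1, 3 of 17 E-box and 2 of 4 CTCF matches. Over all promoter matches of these motifs the shares were 74.0%, 95.8%, 5.79% and 65.1%. The CRE (TGACGTCA, the element of the cAMP-responsive factors) was matched in 3 of the 56 promoter peaks, against 2.74% of all, and was covered in both replicates at Napa (+119 bp) and Syn1 (-70 bp). NRF1 was also matched in 3, against 1.62%, and was covered at Snap23, 7 bp from the start, and in the downstream Cacna1a peak. The GC box of SP and KLF factors (GGGCGGG) was matched in 24 of 56, against 47.6%, and 7 of its 51 single matches were covered, against 26.9% of all such matches, at Dnajc5, Vamp2, Rab3a, Cacna1b, Cacna1c, Syt11 and Rims2. The E-box (CAGCTG) was matched in 14, against 21.6%, and was covered at Napa, at Syt1 and within the REST footprint of Cacna1b, whose match overlaps it. The ETS motif (CCGGAAG) was matched in 2 peaks, those of Dnajc5 and Syt11, against 14.6% of all.

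The remaining motifs gave few matches in promoter peaks: 5 each for NFY (GCCAATNNG) and YY1 (AAGATGGC), against 8.38% and 4.48% of all, 3 each for CTCF and AP-1 (TGA, any base, TCA), against 4.11% and 5.90%, 2 for EGR (GCGTGGGCG), against 1.53%, and 1 for SF-1 (CAAGGTCA) at Rab3a, against 1.66%. The GATA factor motif, searched as AGATAA, had 0 matches, against 4.69%, as had the homeodomain and RFX motifs, against 0.0277% and 2.83%. Both strands were searched throughout, and no match says only that these letters are not in the peak. In the 300-base promoter windows of RefSeq for the same build, which end 50 bases after the start and were given for 26 of the 34 genes, REST was matched at Syn1 alone, against 0.0777% of 27025 windows.

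Distal peaks, more than 1 kb from every annotated start, numbered 76 within 50 kb of the 5'-most starts, or 2.24 per gene against 1.63 over all protein-coding genes. The 34 genes had a median of 2 against 1, and at least 1 was found for 26 of them, against 65.6% of genes. Vamp2 held 14 of the 76. At least 5 were found at 4 genes, Vamp2, Unc13a (6), Doc2b (5) and Rab3a (5), against 7.3% of genes. The 8 genes without any were Snap23, Syt4, Rph3a, Cplx1, Cadps, Rims1, Rab3c and Sv2b. Gene neighbourhoods were sparse in general, with a median of 0 other protein-coding 5'-most starts within 50 kb against 2, and the number of neighbours varied among genes with many distal peaks, with 7 at Vamp2, 4 at Rab3a, 3 at Unc13a and 0 at Doc2b. Sv2a, with 6 neighbours, had 1 distal peak, and Syp, with 5, had 3.

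All 14 distal peaks at Vamp2 lay outside the gene, and their nearest starts belonged to Aurkb (4 peaks), Hes7 (3), 9330160F10Rik (3), Per1 (2), Tmem107 (1) and 9130213A22Rik (1). The highest, in an intron of Per1 8630 bp from the Vamp2 start, had 15.3 in replicate 1 and 5.86 in replicate 2 (chr11:69096981-69097260), above the Vamp2 promoter peak itself. At Unc13a 5 of 6 lay inside the gene, the highest in a UTR exon 42347 bp downstream at 10.2 and 4.90 (chr8:71629301-71629520). Doc2b had 1 at 9.30 and 3.01, centred at -16081 bp in an intron of Gm12339 (chr11:75812021-75812240), above its own promoter peak (1.44 and 1.40) in both replicates. Among the 5 of Rab3a the highest had 3.62 and 1.63, centred at -1339 bp (chr8:70753241-70753440). In all, 23 of the 76 lay inside the gene, and 24, at 14 genes, had their nearest start in that gene, while for 52 the nearest start was that of another gene.

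The distal peaks of the 34 genes had a higher median height than all shared distal peaks. It was 2.21 in replicate 1 and 1.30 in replicate 2, against 1.497 and 0.874 over all 26622. The heights of the 76 reached from 0.575 to 15.3 and from 0.328 to 5.86. The 76 all lie within 50 kb of a 5'-most start, whereas the 26622 lie at any distance beyond 1 kb from a start. No set matched by distance was compared. A footprint of both replicates lay in 70 of the 76, against 85.7%. Higher in replicate 2 were 2 of the 76, against 6.09%, an intronic peak of Cplx2 (1.40 and 1.41) and a peak upstream of Cacna1c (0.909 and 0.967). AP-1 was matched in 11 of the 76, against 11.8% of all distal peaks, the GC box of SP and KLF factors in 11, against 7.08%, and the E-box in 13, against 22.2%. The distal peak of Napa with the REST match was centred 49372 bp downstream, in an intron of Slc8a2, at 1.76 and 1.55, and the start of Slc8a2 is nearer to it. When the window followed the whole gene body with 50 kb on either side, the count was 141, against a mean of 2.32 per gene over all genes. The channel genes then had 38 in place of 6, with 15 at Cacna1a, 13 at Cacna1c and 7 at Cacna1d, and the priming and tethering genes 30 in place of 16.

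**Figure D4:**
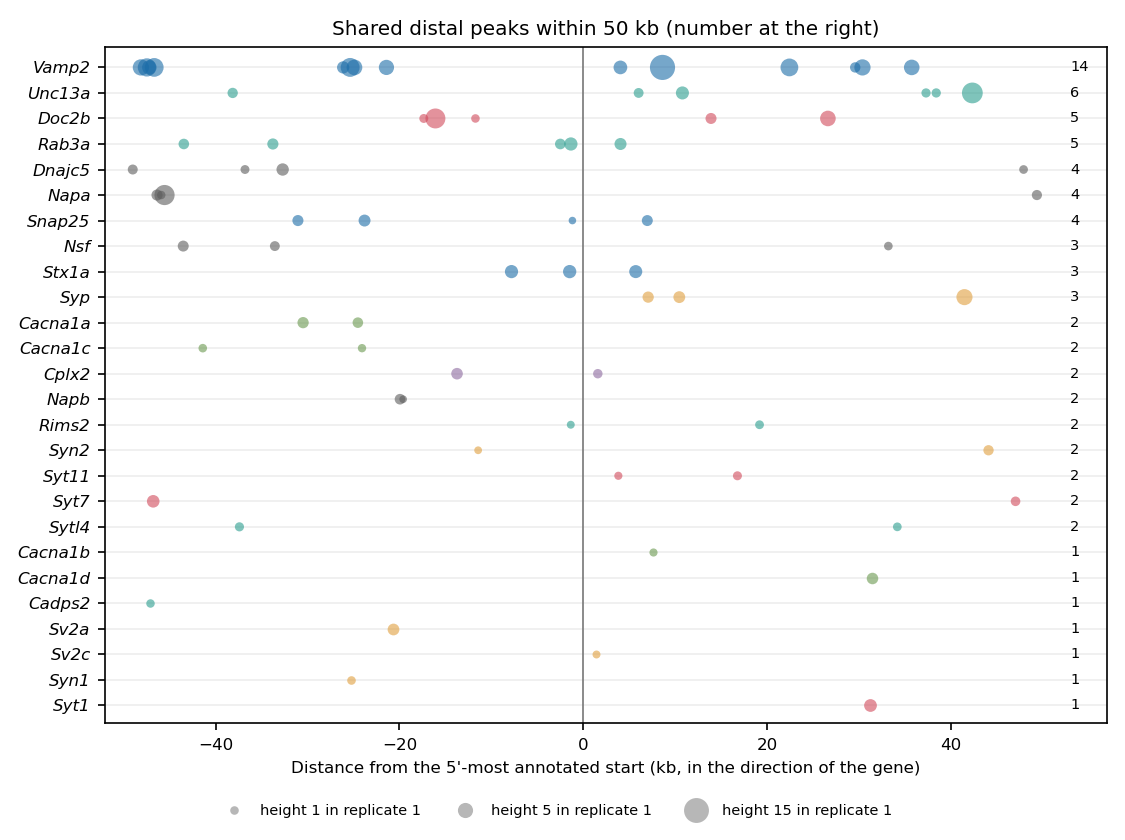
Distal peaks of both replicates up to 50 kb from the 5'-most start (x axis, kb in the direction of the gene) for the 26 genes with at least 1, coloured by role, with circle area following height in replicate 1 and the number of peaks at the right. Vamp2 has 14, and its largest circle, at 8630 bp, is the peak of height 15.3 in Per1.

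At the highest promoter peak only Rph3a, Cadps2 and Cacna1d were higher in replicate 2, 3 of 34 against 3.18% of genes. After the median over all shared peaks was subtracted from the log2 ratio of the replicates (1 over 2), the 34 genes had a median of -0.14 against 0.19 over all genes, and 19 were below 0, against 32.6%. The ratio increased with height over all shared promoter peaks, from 0.17 in the lowest decile to 1.16 in the highest before centring. Centred on peaks of similar height the median was -0.12 against 0.01, with 19 below 0 against 48.4%. The median centred ratio was 0.55 for the chaperone and disassembly genes and 0.08 for the SNARE genes, and it was -0.43 for the calcium sensors and -0.57 for the complexins. Centred on peaks of similar height these medians were 0.19 for the chaperone and disassembly genes, -0.07 for the SNARE genes, a change of sign, -0.32 for the sensors and -0.55 for the complexins.

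Single genes stood far apart in this ratio. Rab3a was 2.93-fold and Napa 2.69-fold higher in replicate 1, whereas Cplx2 was 1.12-fold and Syt7 1.29-fold higher, at comparable or lower heights. Cacna1d (0.802 against 0.911), Rph3a (1.28 against 1.33) and Cadps2 (1.44 against 1.45) had the lowest centred ratios, -0.92, -0.78 and -0.74. Centred on peaks of similar height, the lowest were Cplx2 (-0.72) and Syt7 (-0.62), followed by Cacna1d (-0.57). With all shared peaks within 50 kb averaged per gene, the median was -0.02 against 0.02, with 18 of 34 below 0 against 46.4%. Centred on promoter peaks of similar height this median turned to 0.11 against 0.08, with 12 of 34 below 0 against 36.1%. With 1 sample on each side, whether these ratios come from the animals, the tissue taken or the libraries cannot be told apart.

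**Figure D5:**
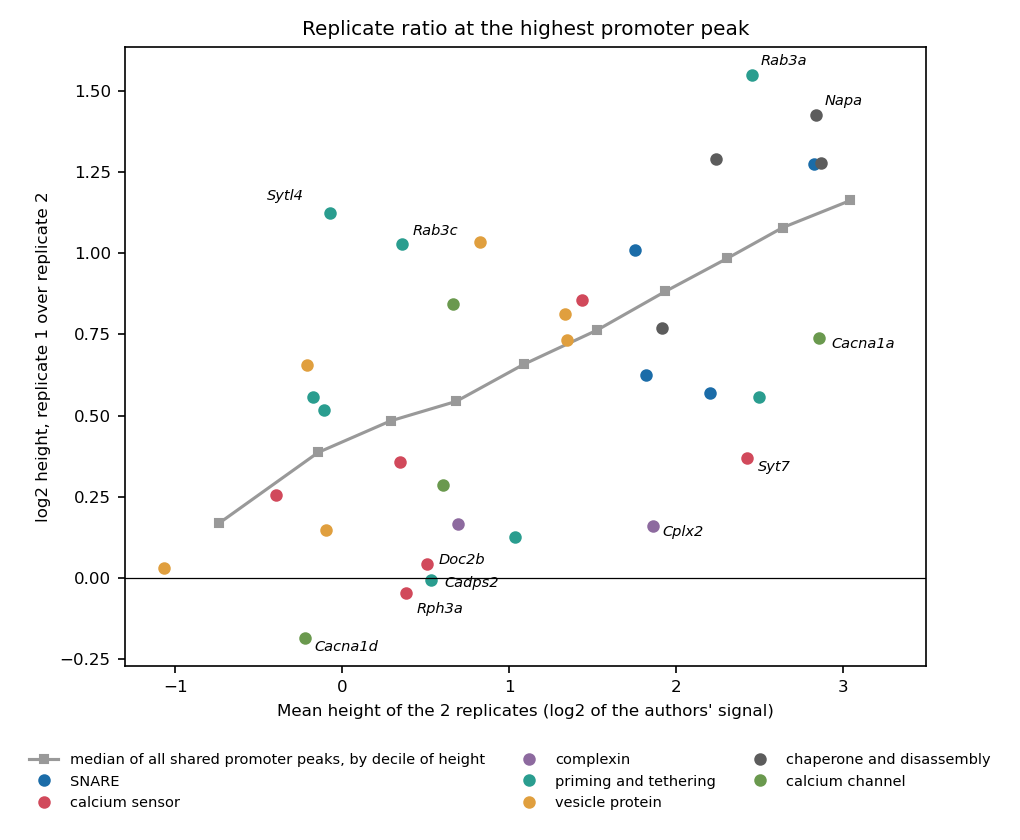
Log2 ratio of replicate 1 over replicate 2 at the highest promoter peak of each gene (y axis) against its mean log2 height (x axis), coloured by role, with the median of all shared promoter peaks in each decile of height as a grey line. Rab3a and Napa lie above the line, and Cplx2, Syt7, Cacna1d and Rph3a lie below it.

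Other genes of the same pathway, given as a list of 67 that were not among the 34, were open in most cases. Of the 66 in the annotation 53 had a shared promoter peak (80.3%), against 64.1% of all genes and 73.0% over the same CpG deciles, with median heights of 2.81 in replicate 1 and 2.13 in replicate 2. The highest were Snap29, a SNARE of many membranes, at 18.1 and 7.57, Stxbp3, a syntaxin-binding protein, at 13.1 and 6.25, and Vamp3, the broadly used relative of Vamp2, at 12.9 and 4.91. Of the 13 without one, the first 3 in alphabetical order were Cacna1e, Cacna1f and Cacna1i, further calcium channel pores.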

How the data were processed

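DNase-seq peaks, footprints and FDR values of 2 biological replicates were used. Per the labels and the file listing deposited with them, the files are on mm10 and each was made from 1 sample. Names of the aligner and of both callers were not given in the sources used here. The authors deposited peak heights as a normalised signal, 1 value per peak. They deposited FDR values as adjusted p-values, and footprints that all carry the same p-value, 0.01, taken here as a cutoff. The mice carry CAST/EiJ alleles and mm10 is a C57BL/6J assembly, and the effect of this on heights was not tested.

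The shorter peak list was the main one. Peaks of both replicates overlapping by at least 1 bp were merged, and the highest signal in each was kept. Starts came from GENCODE M21, and sequence from the RefSeq copy of the same build. Among shared promoter peaks of a gene the highest was that with the largest mean log2 height. Promoter windows were 1 kb around any start and distal windows 50 kb around the 5'-most start. CpG observed over expected was taken within 500 bp of that start. For the REST motif 3 mismatches were allowed, for RFX 2 and for the others 0. Of the list of other pathway genes, 66 of 67 symbols were matched. The steps were checked on simulated regions and sequence with known answers. Python 3.11.15, numpy 2.4.6, pandas 2.3.3 and matplotlib 3.10.9 were used.

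The genes, lists, motifs and naming rule were chosen with earlier results of these data known. All 34 genes could be named. Full values were given for the 3 highest, those with the most distal peaks, those open away from the 5'-most start and those with a REST match. No test was made, since there was 1 group of 2 replicates. The labels call these biological replicates, and the values measure only the spread between these 2 samples. Alternatives covered the promoter and distal windows, the longer peak list, the overlap, the 50% highest peaks, single replicates, footprint overlap, the centring of ratios and the motif settings.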

Additional observations from a re-analysis of the deposited data

How the results depend on the processing

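The count of 34 genes with a shared promoter peak held at 500 bp and 2 kb around any start and in the longer list. It also held at an overlap of 50% of the shorter peak and in either replicate alone. Over all genes the share in these settings was 62.8% to 68.3%. The count was 31 with the 5'-most start only (59.6% of all genes and 79.6% over the same CpG deciles). It was 25 in the 50% highest peaks (56.4% and 73.0%), close to the CpG-matched share. The 76 distal peaks were 113 in the longer list, 74 at 50% overlap, 45 in the 50% highest peaks, 36 within 25 kb, 137 within 100 kb and 141 over the gene body and 50 kb on either side. Over all genes the means per gene in these settings were 2.82, 1.61, 0.831, 0.792, 3.27 and 2.32, against 1.63 in the main setting. Leaving out 1 replicate gave 85 (replicate 2 alone) to 139 (replicate 1 alone), against 1.86 and 3.62 per gene over all genes. The median centred log2 ratio within 50 kb, -0.02, was 0.11 when centred on promoter peaks of similar height, a reversed direction (0.08 over all genes), and -0.14 at the highest promoter peak only. Genes with a REST match numbered 5 at 2 mismatches (1.21% of all genes), 11 at 4 (3.04%) and 7 within 75 bp of the peak centre (1.95%). In the main setting they numbered 9 (2.09%). Genes with a footprint of both replicates numbered 27 at 50% reciprocal overlap (89.6% of all genes with a promoter peak), against 30 (95.5%). Median heights and width stayed within the spread between replicates in the longer list (2.34, 1.71 and 390 bp). For the 5'-most start, chosen after seeing the data, 31 genes became 22 in the 50% highest peaks (52.3% of all genes). In the other settings they were 31 to 32 (58.9% to 63.7% of all genes). The causes were not tested. No paired analysis was possible because there was 1 group. If 1 step of height is 1 tag, the lowest promoter peaks carry a counting error of 11.8% in replicate 1 and 11.5% in replicate 2.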
